A study of Macaca mulatta with 2 samples.

Results

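The 7 genes described here belong to the TGF-β pathway. They are the ligand gene TGFB1, the receptor genes TGFBR1, TGFBR2 and TGFBR3, the signal transducer SMAD3, the inhibitory SMAD7 and the corepressor SKI. They were taken by name from the 35432 genes of the deposited gene list, and all 7 were in it. The cells were blood T cells positive for both CD4 and CD8 (DP T cells), taken from 1 untreated rhesus monkey (Macaca mulatta) aged 6 years. They had been enriched with magnetic beads, for CD4 and then for CD8. A gene expression library, read from the 5′ end of the transcripts, and an antibody tag library for CD4 and CD8 were made from the same cells. There was 1 animal and no replicate, so the intervals given cover counting error only and no p-value was computed. The levels were compared between CD3E+ cells that did and did not carry raw UMIs of GNLY, GZMB, CX3CR1, EOMES, CCR6, CCR9, FOXP3 or CCR7. UMIs are molecules counted by their molecular identifiers.

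TGF-β1 is made as a latent complex and, once released, binds the type II receptor TGFBR2, which then activates the type I receptor TGFBR1. TGFBR3 (betaglycan) is a co-receptor that presents the ligand to TGFBR2 and can also be shed from the surface. The active type I receptor phosphorylates SMAD2 and SMAD3, which enter the nucleus with SMAD4. SMAD7 blocks the type I receptor and is itself induced by the pathway, and SKI holds SMAD target genes silent. In T cells TGF-β restrains cytotoxic function and supports regulatory T cells, gut homing and tissue residence.

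The genes lie apart in the genome. In RefSeq's annotation of Mmul_10, TGFB1 spans positions 40574859 to 40598883 of chromosome 19, on the minus strand. TGFBR1 spans 43763472 to 43812747 of chromosome 15 and TGFBR2 17035106 to 17123221 of chromosome 2, both on the minus strand. TGFBR3 covers 132294561 to 132501703 of chromosome 1 on the plus strand, which makes it the longest of the 7 at 207.1 kb. SMAD3 spans 43702127 to 43832675 of chromosome 7 and SMAD7 33496865 to 33528083 of chromosome 18, both on the plus strand. SKI spans 222098534 to 222182492 of chromosome 1 on the minus strand. No annotated gene overlapped 6 of them, and TGFBR3 held 1 pseudogene on its own strand that touched none of its exons.

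The 250 bases upstream of the annotated start are shown for TGFBR3, whose level differed most between the cells, and for TGFBR1, the 1 member that was highest in cells with CCR6. Capitals mark the SMAD box, the letters CAGAC or, on the other strand, GTCTG. Both sequences are from the Mmul_10 RefSeq genome and run 5′ to 3′ on the gene's own strand, at chr1:132294311-132294560 on the plus strand for TGFBR3 and chr15:43812748-43812997 on the minus strand for TGFBR1.
TGFBR3: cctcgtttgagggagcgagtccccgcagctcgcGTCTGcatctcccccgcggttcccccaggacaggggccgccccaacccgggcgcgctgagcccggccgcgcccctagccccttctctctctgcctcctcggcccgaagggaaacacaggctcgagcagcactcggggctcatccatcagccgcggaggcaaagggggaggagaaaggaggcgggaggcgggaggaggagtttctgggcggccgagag
TGFBR1: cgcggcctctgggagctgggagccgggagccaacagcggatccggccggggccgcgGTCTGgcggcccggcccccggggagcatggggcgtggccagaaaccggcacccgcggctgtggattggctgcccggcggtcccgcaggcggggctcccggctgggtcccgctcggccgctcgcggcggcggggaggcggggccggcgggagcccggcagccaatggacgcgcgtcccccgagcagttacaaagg
Each window held the SMAD box 1 time, and the windows of the other 5 members held none. Of 21102 windows of this length before protein-coding genes, 37.4% held it. The joined boxes GTCTAGAC were in 0.12% of all windows, and the T-box letters AGGTGTGA, searched with TCACACCT on the other strand, in 1.19%. Neither was in any of the 7 windows. These are matches of letters in 1 window per gene and say nothing about binding. The window of TGFBR3 was 71.2% G and C and that of TGFBR1 79.6%, against a median of 57.2% over all windows.

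The data held 7923 barcodes and 32297887 gene UMIs, of which 7601 barcodes were kept. Of these, 7311 carried a CD3E UMI, with a median of 3656 UMIs per cell and quartiles of 3001 and 4720. Another 86 cells without a CD3E, CD3D or CD3G UMI had 3 or more UMIs from B cell markers (median 4137.5 UMIs). They give the level of the 7 genes in another cell type of the same library. Platelets are a rich source of TGFB1. Of the 6 platelet markers, TUBB1 and GP1BB were at 0 UMIs in the CD3E+ cells, and the summed markers stayed between 0 and 1.93 CPM in the cells positive for each of the 8 genes, except for 2.20 with GNLY and 3.73 with FOXP3. CPM is a gene's UMIs per 1000000 gene UMIs summed over a group of cells. Monocyte markers summed to 2.34 to 4.88 CPM in the same groups, with FCN1 at 0. Red blood cell markers, mostly HBA and HBB, reached 1139.8 CPM in the cells with none of the 8 genes and 2.36 to 144 CPM in the other groups of cells compared below. Their part in the results was not tested.

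All 7 genes were detected. TGFB1 had 6311 UMIs in the CD3E+ cells, a level of 209.6 CPM (95% Poisson interval 204 to 215), and 53.0% of the cells carried at least 1. TGFBR3 had 4066 UMIs (135 CPM, 131 to 139) in 32.9% of the cells. TGFBR2 had 2246 UMIs (74.6 CPM, 71.5 to 77.7) in 25.2% of the cells. The other 4 were sparse. SMAD3 had 935 UMIs (31.0 CPM, 29.1 to 33.1), TGFBR1 484 (16.1 CPM, 14.7 to 17.6), SMAD7 429 (14.2 CPM, 12.9 to 15.7) and SKI 121 (4.02 CPM, 3.33 to 4.80). SKI was in 1.64% of the cells and SMAD7 in 5.65%, so a cell without a UMI of them cannot be read as a cell without the transcript.

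Since shares depend on depth, the 6935 CD3E+ cells with 2000 or more UMIs were also thinned to 2000 UMIs each, which left out 376 shallower cells. The thinned shares were 34.2% for TGFB1, 22.0% for TGFBR3, 14.2% for TGFBR2, 6.11% for SMAD3, 3.27% for TGFBR1, 2.73% for SMAD7 and 0.851% for SKI. The B gene cells carried most of these genes too. Their unthinned share with TGFB1 was 24.4% and with TGFBR2 19.8% (exact binomial interval 12.0 to 29.8%), and B cells are not known to lack these genes, so this share is not a pure background. Only 2.33% of the B gene cells held TGFBR3 (0.283 to 8.15%), against 32.9% of the CD3E+ cells. SMAD7 was in 0 of the 86, with a Poisson interval of 0 to 9.29 CPM.

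Cells were called positive at 3 UMIs for GNLY, which encodes granulysin, and for GZMB, which encodes granzyme B, and at 1 UMI for the other 6 genes. CX3CR1 marks circulating effector cells, EOMES is a T-box factor of effector and memory cells, CCR6 and CCR9 are chemokine receptors of mucosal homing, FOXP3 is the regulatory T cell factor and CCR7 the receptor for lymph node entry. This gave 2770 GZMB+ cells against 4038 with 0 UMIs, 1522 GNLY+ against 4369, and 1269 CX3CR1+ against 6042. The 503 cells with 1 or 2 GZMB UMIs were left out of the GZMB ratios, and the 1420 with 1 or 2 GNLY UMIs out of the GNLY ratios. There were 2163 CCR7+, 557 CCR6+, 479 CCR9+, 356 EOMES+ and 162 FOXP3+ cells. GZMB+ cells were shallower than cells without GZMB (median 3303 against 4048.5 UMIs), and CCR7+ cells were deeper than cells without CCR7 (4377 against 3451). In the B gene cells, 18.6% carried a CCR7 UMI, 10.5% a CCR6 UMI and 3.49% a CCR9 UMI, none a CX3CR1, EOMES or FOXP3 UMI, and 2.33% had 3 or more GZMB UMIs.

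Members at least 1.5-fold apart were counted for each of the 8 genes, beside the same share over all genes tested. With GZMB 3 of 7 members were higher and none lower, where 20.4% of all 10795 genes tested were higher and 11.5% lower. With GNLY 3 of 7 were higher and none lower, against 7.49% and 6.87% of all genes. With CX3CR1 1 of 7 was higher, against 13.6%, and none lower, against 8.73%. With EOMES 2 of the 6 members tested were higher, against 3.98%, and none lower, against 5.11%. With CCR6 1 was higher and 1 lower, against 4.82% and 6.33%. With CCR9 none was higher, against 4.16%, and 2 were lower, against 10.3%. With FOXP3 none of 6 was higher, against 4.52%, and 4 were lower, against 15.2%. With CCR7 none was higher, against 8.01%, and 2 were lower, against 14%. The share of CX3CR1 was near the background, and CCR6 had 1 member each way. Relative to the median of all genes, the count fell from 3 to 1 with GZMB and from 2 to 1 with EOMES and with CCR7. The count with GNLY also fell, since TGFBR2 (0.61, beside a median of 0.09 over all genes) came under 1.5-fold. SKI had too few UMIs to be tested with EOMES and FOXP3.

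The median log2 ratio over the members was 0.54 with GZMB, 0.52 with GNLY and 0.31 with CX3CR1, beside 0.20, 0.09 and 0.18 over all genes tested. With EOMES it was 0.35 beside 0.03, with CCR6 -0.08 beside -0.01, and with CCR9 -0.27 beside -0.08. With FOXP3 it was -0.77 beside -0.10 and with CCR7 -0.39 beside -0.15. All of these are differences on the log2 CPM scale. Since the median of all genes was itself over 0.1 away from 0 with GZMB, CX3CR1 and CCR7, ratios relative to that median are also given for the members called with these genes. Of the 54 ratios tested, 19 were at least 1.5-fold, and each of these kept its sign under all 13 other ways of processing. Only 8 stayed at least 1.5-fold in all of them, and they were TGFBR3 with GZMB, GNLY, CX3CR1, CCR9, FOXP3 and CCR7, TGFB1 with FOXP3 and TGFBR1 with CCR6.

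**Figure D1:**
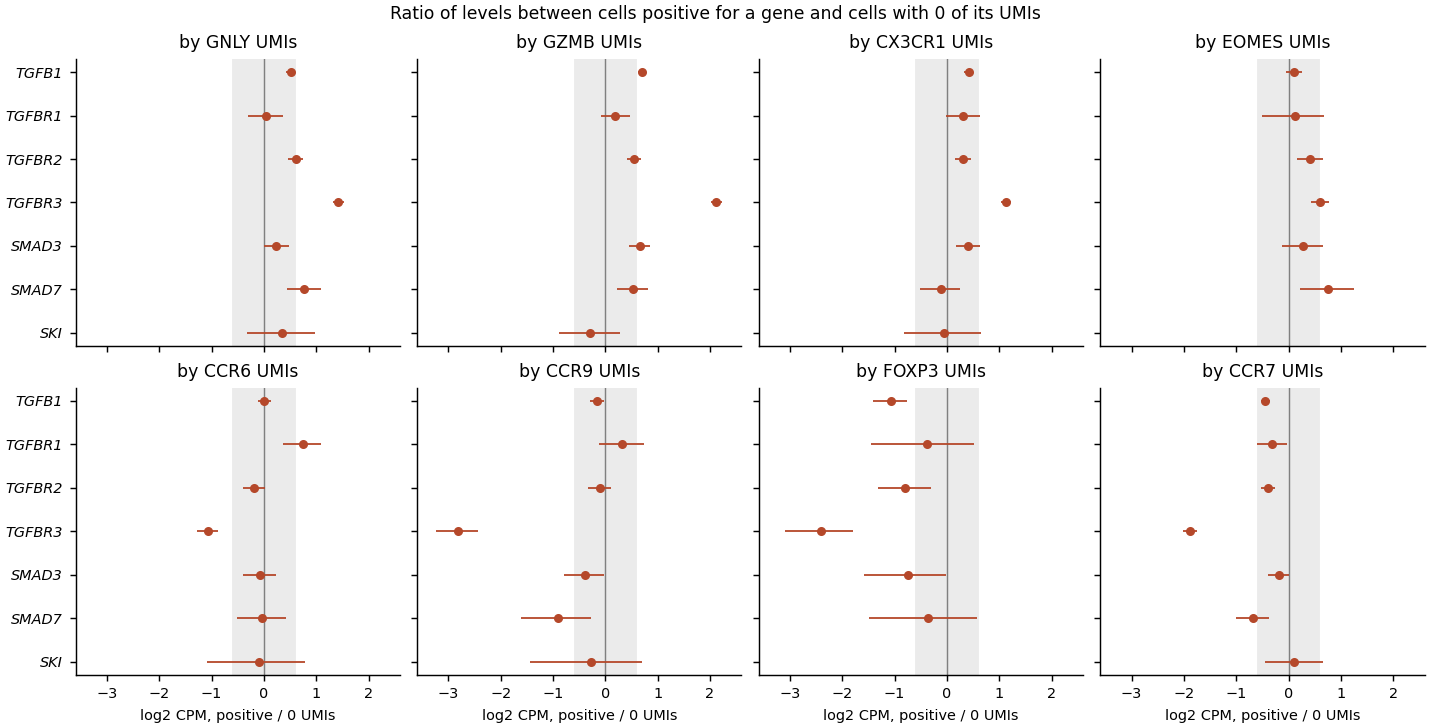
Log2 ratio of CPM between cells positive for a gene and cells with 0 UMIs of it (horizontal axis) for each member tested (rows), 1 panel for each of the 8 genes. Bars are exact binomial 95% intervals for counting error and the grey band marks ratios under 1.5-fold, with TGFBR3 at 2.12 by GZMB and -2.82 by CCR9.

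TGFB1, the ligand, was higher in cells with cytotoxic transcripts and lowest in cells with FOXP3. It was at 275 CPM in GZMB+ cells (265 to 285) and 169.8 CPM in cells without GZMB (164 to 176), a log2 ratio of 0.69 (0.62 to 0.77). The intervals did not overlap, but the ratio was 0.50 relative to the median of all genes, which is below 1.5-fold. With GNLY it was 256 against 179 CPM (0.52, 0.43 to 0.60) and with CX3CR1 265 against 198 CPM (0.42, 0.33 to 0.51). The level followed the GZMB count in a cell, from 169.8 CPM at 0 UMIs to 207 at 1 or 2, 263 at 3 to 9, 285 at 10 to 19 and 276 at 20 or more. Beyond 3 GZMB UMIs the neighbouring intervals overlapped.

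In FOXP3+ cells TGFB1 was at 101 CPM (79.9 to 125), against 213 CPM in cells without FOXP3, a log2 ratio of -1.08 (-1.41 to -0.76). It rested on 81 UMIs. Cells with 1 FOXP3 UMI were at 116 CPM (88.2 to 149) and those with 2 or more at 73.4 (45.5 to 112), with overlapping intervals. CCR7+ cells were at 170.3 CPM against 231 in cells without CCR7 (-0.44, -0.52 to -0.36), and in UMIs per cell without scaling this ratio was -0.06. With EOMES (0.10, -0.06 to 0.26) and CCR6 (0.01, -0.11 to 0.13) the intervals included no difference, and with CCR9 the ratio was -0.16 (-0.29 to -0.02). Within the cells without GZMB the TGFB1 ratio was 0.24 (0.10 to 0.38) with CCR6 and 0.06 (-0.10 to 0.21) with CCR9. Within GZMB+ cells it was 0.12 (-0.14 to 0.38) and 0.11 (-0.21 to 0.41). The 37 CD3E+ cells that held a platelet marker UMI were at 256 CPM (192 to 335) and the 7274 without one at 209 CPM (204 to 215).

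TGFBR1, the type I receptor kinase, was at least 1.5-fold higher with CCR6 and with none of the other 7 genes. It was at 25.1 CPM in CCR6+ cells (19.8 to 31.2) and 15.0 CPM in cells without CCR6 (13.6 to 16.6), from 79 and 405 UMIs. The log2 ratio was 0.74 (0.37 to 1.09). The ratio was 0.87 (0.44 to 1.29) within the cells without GZMB, and 0.58 (-0.45 to 1.45) within GZMB+ cells, of which 47 carried CCR6. B cell markers were higher in CCR6+ than in other cells, at 162 against 64.4 CPM, and without the CD3E+ cells that held 3 or more B gene UMIs the ratio of TGFBR1 was 0.64. With the other 7 genes TGFBR1 stayed within 1.5-fold, from -0.38 with FOXP3, on 10 UMIs, to 0.31 with CCR9, and the intervals of 6 of these 7 ratios included 0, the exception being CCR7 (-0.31, -0.60 to -0.03). Against cells with none of the 8 genes, the ratios for cells with 1 class of marker were 1.29 (0.62 to 1.93) with CCR6 and 0.67 (-0.20 to 1.45, 17 UMIs) with CCR9. They were 0.66 with CX3CR1 and 0.66 (-1.65 to 2.27, 3 UMIs) with FOXP3. The CCR6+ cells were above the CCR9+ cells by 0.63 (-0.28 to 1.58), an interval that included 0. In UMIs per cell without scaling the CCR9 ratio was 0.78.

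TGFBR2, the type II receptor that binds the ligand, differed by at most 1.74-fold with any of the 8 genes. It was at 96.8 CPM in GNLY+ cells (89.3 to 105) against 63.5 CPM (59.9 to 67.2), a log2 ratio of 0.61 (0.47 to 0.75), just past 1.5-fold. The mean over cells of their own CPM gave 0.49, below it. GZMB gave 90.9 against 62.3 CPM (0.54, 0.42 to 0.67), EOMES 0.41 (0.17 to 0.65) and CX3CR1 0.30 (0.15 to 0.45). In FOXP3+ cells TGFBR2 was at 43.5 CPM (30.3 to 60.5) against 75.4 CPM, a log2 ratio of -0.80 (-1.32 to -0.31) from 35 UMIs. UMIs per cell without scaling gave -0.52, under 1.5-fold. With CCR7 the ratio was -0.39 (-0.52 to -0.26), and -0.01 without scaling.

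TGFBR3, the co-receptor betaglycan, separated the cells most. GZMB+ cells were at 248 CPM (238 to 257) and cells without GZMB at 57.1 CPM (53.6 to 60.7), which is 4.34-fold, a log2 ratio of 2.12 (2.01 to 2.22) and of 1.92 relative to the median of all genes. At equal depth, 38.0% of GZMB+ cells and 9.57% of cells without GZMB held a TGFBR3 UMI. Of the GZMB+ cells, 44.7% had no TGFBR3 UMI, 31.4% had 1, 14.0% had 2 and 9.82% had 3 or more. GNLY gave 219 against 81.9 CPM (1.42, 1.32 to 1.53), CX3CR1 245 against 112 CPM (1.13, 1.03 to 1.22, and 0.95 relative to the median of all genes) and EOMES 199.7 against 131 CPM (0.60, 0.43 to 0.77). The EOMES ratio was near the 1.5-fold limit and fell below it in 4 of the other ways of processing, with 0.44 as the lowest value.

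TGFBR3 was low in cells with CCR9. The 479 CCR9+ cells held 55 TGFBR3 UMIs, 20.7 CPM (15.6 to 26.9), against 146 CPM (142 to 151) in cells without CCR9. That is 7.07-fold lower, a log2 ratio of -2.82 (-3.23 to -2.44). At equal depth 1.53% of CCR9+ cells and 23.5% of the others held a UMI, and the B gene cells were at 2.53% (0.308 to 8.85%), with a level of 10.1 CPM (2.75 to 25.8) from 4 UMIs. FOXP3+ cells were at 26.1 CPM (16.1 to 39.9) against 138 CPM (-2.40, -3.10 to -1.79), from 21 UMIs. CCR7+ cells were at 49.3 CPM (45.2 to 53.7) against 182 CPM (-1.88, -2.02 to -1.75), and -1.74 relative to the median of all genes. CCR6+ cells were at 68.2 CPM (59.4 to 77.9) against 143 CPM (-1.07, -1.27 to -0.87). B cell markers were also higher in the positive cells with CCR9 (149 against 67.4 CPM), CCR7 (130.2 against 44.2) and EOMES (145 against 70.8), and without the CD3E+ cells that held 3 or more B gene UMIs the TGFBR3 ratios were -2.88 with CCR9, -1.91 with CCR7, -1.06 with CCR6 and 0.65 with EOMES. The CCR6 ratio shrank to -0.16 when cells positive for CCR6 alone were set against cells positive for none of the 8. In these groups 27 of 205 and 369 of 1394 cells carried 1 or 2 UMIs of GNLY or GZMB, too few to be called positive. Their part in this ratio was not tested.

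The number of UMIs showed a step more than a slope. TGFBR3 went from 57.1 CPM at 0 GZMB UMIs to 219 (198 to 241) at 1 or 2, and then lay at 269 (253 to 286) at 3 to 9, 256 (241 to 271) at 10 to 19 and 199 (182 to 217) at 20 or more. The last interval lay below the previous pair. With GNLY it went from 81.9 CPM at 0 to 214 at 1 or 2 and stayed between 213 and 236 CPM above that. With CX3CR1 it went from 112 CPM at 0 to 253 at 1 UMI and 189.9 (156 to 229) at 3 or more. With CCR7 it fell from 182 CPM at 0 to 49.7 at 1 UMI, 53.2 at 2 and 45.3 at 3 or more.

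**Figure D2:**
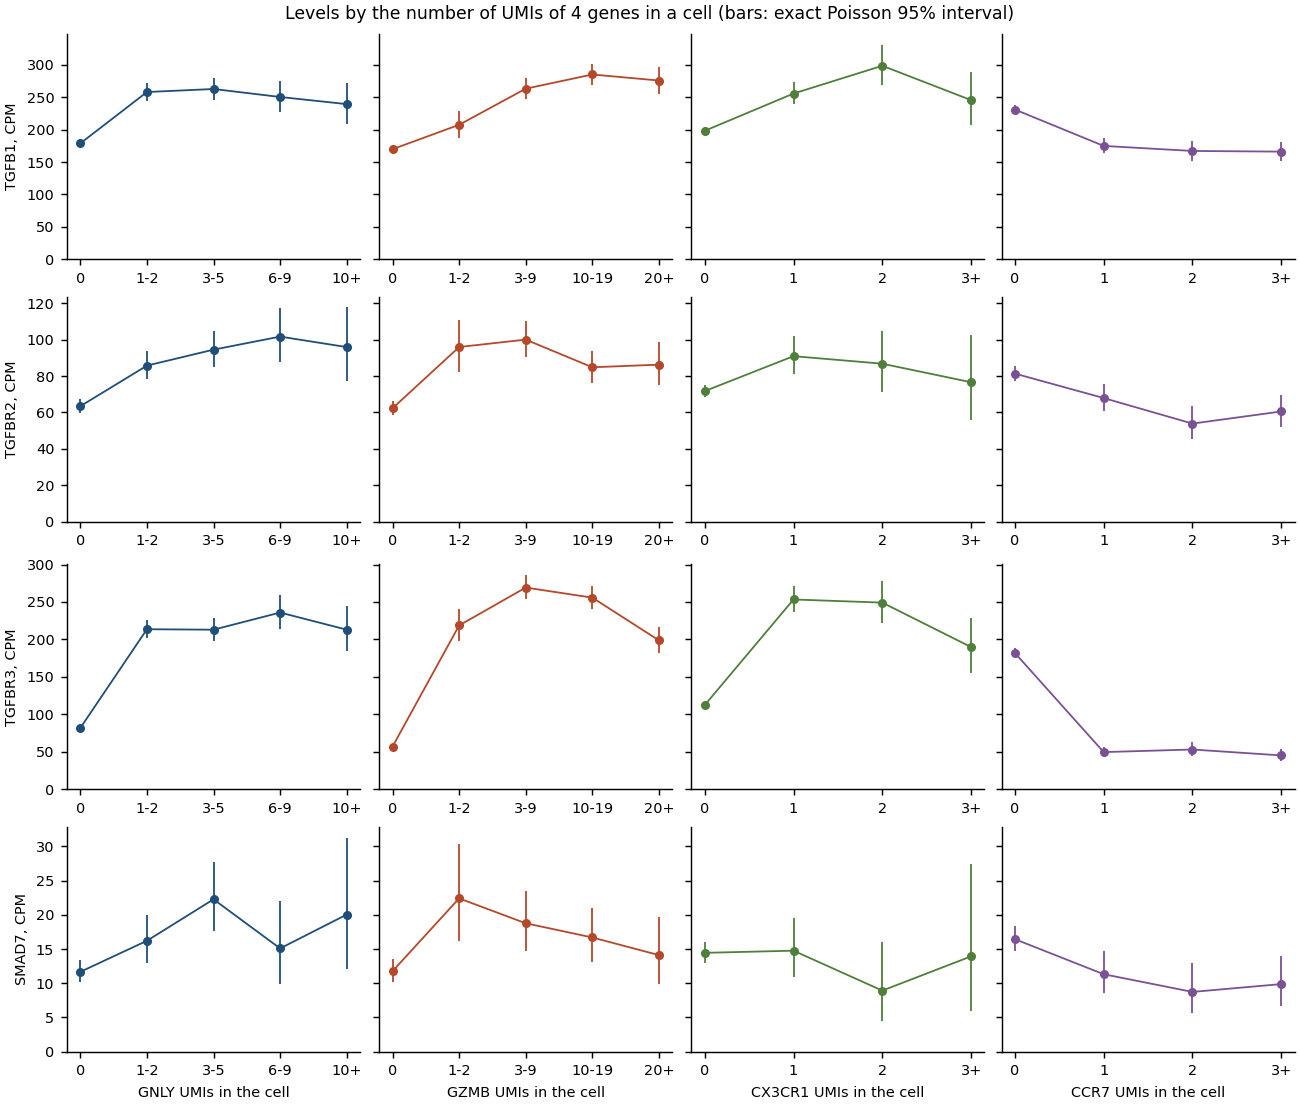
Level in CPM (vertical axis) of TGFB1, TGFBR2, TGFBR3 and SMAD7 (rows of panels) against the number of GNLY, GZMB, CX3CR1 or CCR7 UMIs in a cell (horizontal axis), with exact Poisson 95% intervals as bars. TGFBR3 stood at 57.1 CPM at 0 GZMB UMIs, at 269 CPM at 3 to 9 and at 199 CPM at 20 or more.

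GZMB and the other genes were not independent of each other, so the TGFBR3 ratios were also taken within the cells with and without GZMB. Among the cells with 0 GZMB UMIs, those with GNLY were 2.29 log2 higher than those without (2.09 to 2.498), those with CX3CR1 2.23 higher (1.70 to 2.71, 37 cells) and those with EOMES 1.74 higher (1.47 to 2.0). Among GZMB+ cells the same 3 ratios were -0.06 (-0.19 to 0.08), -0.06 (-0.17 to 0.05) and -0.27 (-0.54 to -0.0039), and the intervals with GNLY and CX3CR1 included 0. CCR9 went with lower TGFBR3 in both, at -2.73 (-3.43 to -2.11) without GZMB and -1.40 (-1.97 to -0.89) with it, and so did CCR7, at -1.26 (-1.46 to -1.06) and -0.96 (-1.19 to -0.74). With CCR6 the ratio was -0.21 (-0.48 to 0.06) without GZMB and -0.89 (-1.29 to -0.52) with it. The GZMB+ cells with CCR9 were only 33, with a median of 8040 UMIs against 3292 in GZMB+ cells without CCR9. Those with CCR6 were 47, at 7617 against 3290 UMIs. Whether these deep cells were pairs of cells caught together was not tested.

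Put together, GZMB and CCR7 gave 4 levels of TGFBR3. They were 264 CPM (254 to 274) in the 2602 cells with GZMB alone, 136 CPM (117 to 157) in the 168 with both, 80.7 CPM (74.8 to 86.9) in the 2140 with neither and 33.7 CPM (30.0 to 37.8) in the 1898 with CCR7 alone. No interval overlapped another. TGFB1 was at 274 CPM in the cells with GZMB alone and 278 CPM in those with both, whose intervals overlapped, and at 186 CPM with neither and 154 CPM with CCR7 alone. The 168 cells with both had a median of 7420 UMIs against 3262 to 4286 in the other 3 groups. Whether they were pairs of cells caught together was not tested.

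**Figure D3:**
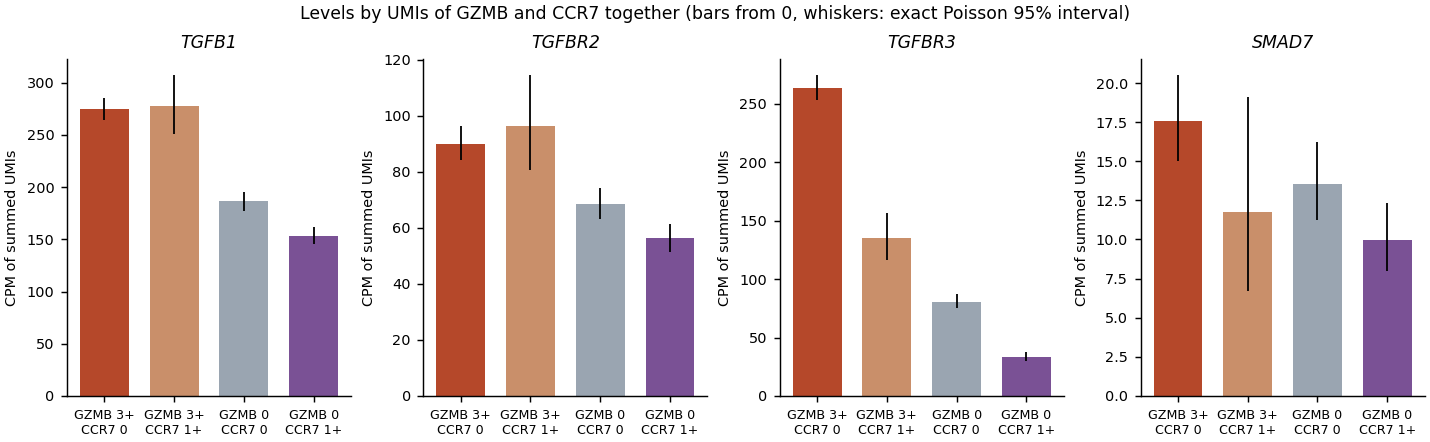
Level in CPM (bars from 0, whiskers exact Poisson 95% intervals) of 4 members in CD3E+ cells grouped by GZMB (3 or more UMIs, or 0) and CCR7 (1 or more, or 0). TGFBR3 ran from 264 CPM with GZMB alone to 33.7 CPM with CCR7 alone, while TGFB1 was at 274 and 278 CPM in both groups with GZMB.

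SMAD3, a transducer of the receptor signal, was somewhat higher with GZMB. It was at 40.3 CPM in GZMB+ cells (36.6 to 44.2) and 25.6 CPM in cells without GZMB (23.3 to 28.1), a log2 ratio of 0.65 (0.46 to 0.84) and of 0.45 relative to the median of all genes, which is under 1.5-fold. CX3CR1 gave 0.41 (0.17 to 0.64), GNLY 0.24 (0.01 to 0.47) and CCR9 -0.40 (-0.79 to -0.03). With FOXP3 it was at 18.6 CPM (10.4 to 30.7) against 31.4 CPM, a log2 ratio of -0.75 (-1.60 to -0.02) from 15 UMIs. Cells with FOXP3 as their 1 class of marker, set against cells with none, gave -0.39. Within the cells without GZMB the FOXP3 ratio was -0.57 (-1.54 to 0.25) on 12 UMIs, and the interval included 0. With CCR7 (-0.19, -0.39 to 0.01), EOMES (0.28, -0.13 to 0.66) and CCR6 (-0.08, -0.41 to 0.23) the intervals included 0.

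SMAD7, the inhibitor of the type I receptor, was at least 1.5-fold higher with GNLY and EOMES over all CD3E+ cells, and not with CX3CR1. It was at 19.9 CPM in GNLY+ cells (16.6 to 23.7) against 11.7 CPM (10.2 to 13.3), a log2 ratio of 0.77 (0.44 to 1.10), and at 23.1 CPM in EOMES+ cells (16.2 to 32.0) against 13.8 CPM (12.4 to 15.2), a ratio of 0.75 (0.21 to 1.24). The GNLY ratio was 0.56 against cells with none of the 8 genes. The EOMES ratio was 0.17 when 2 EOMES UMIs were asked for. GZMB gave 0.52 (0.22 to 0.82) and CX3CR1 -0.12 (-0.52 to 0.25). Lower levels were found with CCR9, at 7.90 against 14.9 CPM (-0.91, -1.62 to -0.28, 21 UMIs), and with CCR7, at 10.2 against 16.4 CPM (-0.68, -1.01 to -0.37). Without scaling these were -0.45 and -0.30. Relative to the median of all genes the CCR7 ratio was -0.54, under 1.5-fold.

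Within the GZMB+ cells, those with CX3CR1 had less SMAD7 than those without, at a log2 ratio of -0.58 (-1.04 to -0.12), from 63 and 118 UMIs. TGFB1 (-0.05), TGFBR2 (-0.03), TGFBR3 (-0.06) and SMAD3 (0.01) differed little in the same comparison, and each of their intervals included 0. In cells without GZMB, SMAD7 was higher with GNLY (0.98, 0.45 to 1.49) and with EOMES (1.13, 0.39 to 1.80). Within GZMB+ cells these ratios were 0.07 (-0.46 to 0.60) and 0.15 (-0.88 to 1.03), and both intervals included 0. With CCR9 the SMAD7 ratio was -0.67 (-1.48 to 0.05) without GZMB and -0.84 (-3.13 to 0.73) with it, and both intervals included 0. With CCR7 it was -0.44 (-0.86 to -0.03) without GZMB and -0.58 (-1.42 to 0.16) with it.

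SKI, the corepressor, could not be told apart between any of the cells at this depth. It had 121 UMIs in all, its 6 tested ratios lay between -0.29 with GZMB and 0.34 with GNLY, and each interval included 0. With GZMB it was at 3.54 CPM (2.51 to 4.86) against 4.34 CPM (3.42 to 5.43).

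To compare cells that share no cell, the CD3E+ cells were split into 9 groups by which of the 8 genes they were positive for. The 1056 cells that fit none of these groups were set aside. They carried several classes of marker, or CX3CR1 without GNLY or GZMB. As above, GNLY and GZMB needed 3 UMIs. Here a cell with 1 or 2 of them counts as a cell without, whereas the GNLY and GZMB ratios above left such cells out. There were 1066 CX3CR1+ cells with GNLY or GZMB, 1836 CX3CR1- cells with GNLY or GZMB, 140 EOMES+ cells with and 65 without GNLY or GZMB, 205 CCR6+, 182 CCR9+, 36 FOXP3+ and 1331 CCR7+ cells, and 1394 with none of the 8. Of the 1394 cells, 369 carried 1 or 2 UMIs of GNLY or GZMB, as did 39 of the 65 EOMES+, 99 of the CCR7+, 27 of the CCR6+, 24 of the CCR9+ and 1 of the FOXP3+ cells. Cells positive for none may still express these genes, since single UMIs are missed. The cells set aside had a median of 4827.5 UMIs, more than any of the 9 groups (3215.5 to 4434).

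TGFBR3 had the widest range over the 9 groups. It was at 265 CPM (249 to 282) in the CX3CR1+ and 263 (250.4 to 276) in the CX3CR1- cells with GNLY or GZMB, 244 (205 to 288) in EOMES+ cells with and 216 (160.01 to 284) in EOMES+ cells without them. These 4 neighbours did not differ beyond counting error. It then dropped to 79.5 CPM (72.1 to 87.5) in the cells with none of the 8 and 71.3 (55.4 to 90.2) in CCR6+ cells, which did not differ, and to 23.7 CPM (19.9 to 28.0) in CCR7+ cells. FOXP3+ cells held 2 UMIs (13.3 CPM, 1.61 to 48.1) and the 182 CCR9+ cells 4 (4.72 CPM, 1.29 to 12.1), and these did not differ from each other. The 65 EOMES+ cells were above the cells with none of the 8 by a log2 ratio of 1.44 (0.99 to 1.86), and the part of their cells with 1 or 2 GNLY or GZMB UMIs in this was not tested.

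TGFB1 ran from 274 CPM in the CX3CR1- and 265 in the CX3CR1+ cytotoxic cells through 253 in EOMES+ cytotoxic and 213 in CCR6+ cells to 179 in cells with none, 164 in EOMES+, 152 in CCR9+, 141 in CCR7+ and 86.6 CPM (46.1 to 148) in FOXP3+ cells. Only the step from CCR6+ to none (0.25, 0.02 to 0.47) was larger than counting error between neighbours. TGFBR2 ran from 113 CPM (87.2 to 145) in EOMES+ cytotoxic cells to 56.6 (50.6 to 63.0) in CCR7+ cells, and FOXP3+ cells held 1 UMI (6.66 CPM, 0.169 to 37.1). That last step was the only one between its neighbours larger than counting error.

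TGFBR1 was highest in CCR6+ cells, at 31.0 CPM (20.9 to 44.2), and between 8.62 and 20.1 CPM in the other 8 groups, with no step between neighbours beyond counting error. The CX3CR1+ cytotoxic cells were above the cells with none of the 8 by a log2 ratio of 0.59 (0.09 to 1.09). SMAD3 was at 40.4 and 38.5 CPM in the CX3CR1+ and CX3CR1- cytotoxic cells and lowest in CCR6+ (16.5 CPM) and CCR9+ cells (14.2 CPM, 7.32 to 24.7), again with no separate step. SMAD7 was at 38.8 CPM (17.7 to 73.7) in EOMES+ cells on 9 UMIs, 28.3 (16.2 to 46.0) in EOMES+ cytotoxic, 21.4 (17.9 to 25.3) in CX3CR1- cytotoxic and 12.9 (9.64 to 17.0) in CX3CR1+ cytotoxic cells. The ratio of the last pair was 0.72 (0.25 to 1.22). It was lowest in CCR9+ cells, at 7.08 CPM (2.6 to 15.4). SKI was between 2.07 and 8.62 CPM in 8 groups, and the FOXP3+ cells had 0 UMIs, with an interval of 0 to 24.6 CPM.

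**Figure D4:**
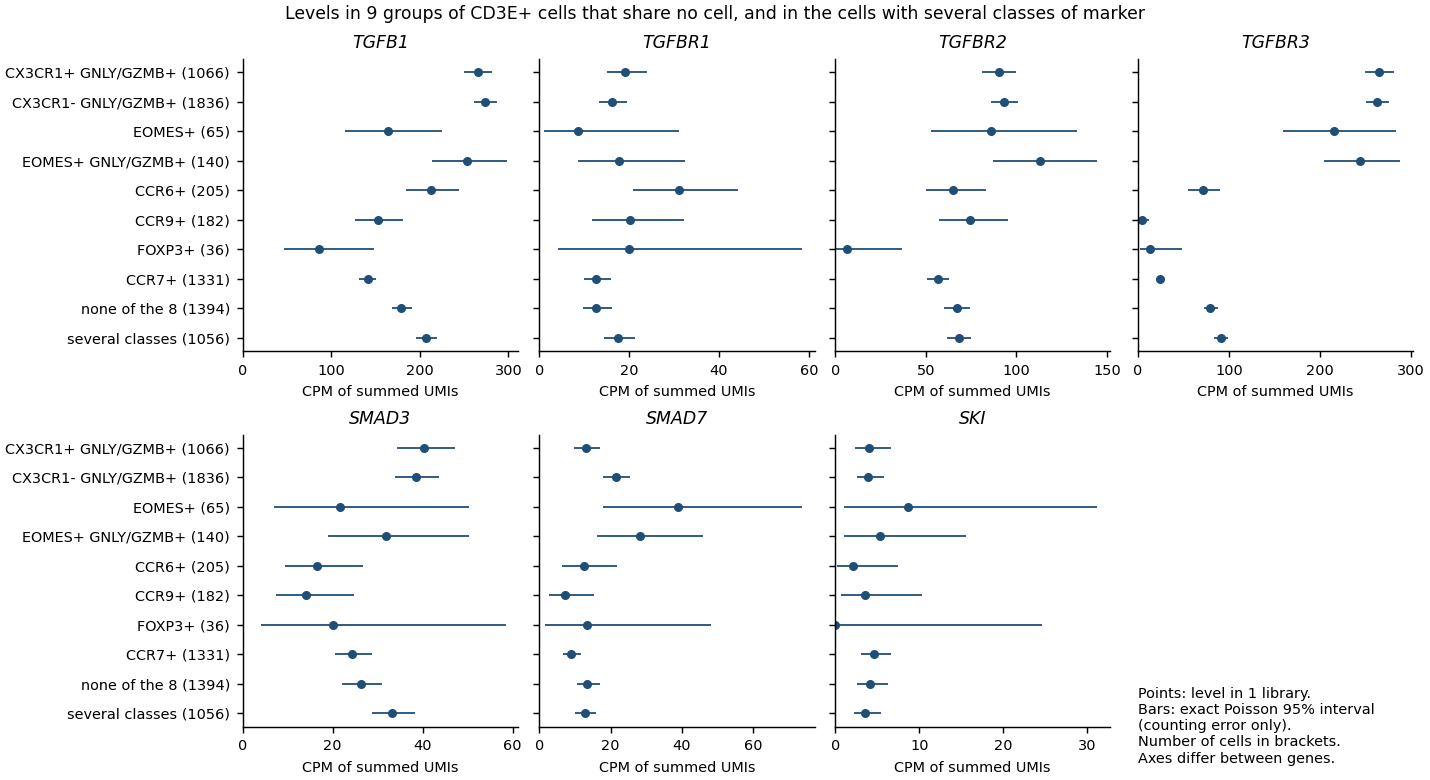
Level in CPM (horizontal axis, a scale of its own for each gene) of the 7 members in 9 groups of CD3E+ cells that share no cell and in the cells set aside (labelled several classes). Bars are exact Poisson 95% intervals and the number of cells is in brackets. TGFBR3 lay between 216 and 265 CPM in the 4 groups positive for GNLY, GZMB or EOMES and between 4.72 and 79.5 CPM in the other 5.

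By surface tag, cells were called above the limit when they passed the 90th percentile of the tag in the B gene cells, 191 UMIs for CD4 and 330.5 for CD8. The CD8 limit lay within the range of the median CD8 tag of the 9 groups (150.5 to 446 UMIs). A cell not above it therefore cannot be read as a cell without CD8, and the split is one of higher and lower CD8 tag. By this limit 3592 CD3E+ cells were above it for both tags and 3270 for CD4 alone. TGFBR3 was lower in the cells above for both than in those above for CD4 alone, at 123 against 146 CPM (-0.25, -0.34 to -0.16), and this held within GZMB+ cells (-0.25, -0.36 to -0.13) and within cells without GZMB (-0.40, -0.59 to -0.21). TGFB1 was higher, at 220.4 against 194 CPM (0.18, 0.11 to 0.26), although within GZMB+ cells the interval included 0 (0.10, -0.02 to 0.21). None of the 7 members differed by 1.5-fold, and cells above for both were deeper (median 4085 against 3460 UMIs). The 186 cells above for CD8 alone were 58.1% GZMB+ and held TGFBR3 at 208 CPM (173 to 247).

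A list of 51 other genes of the pathway, chosen like the members with earlier results of these data known, had 50 genes in the deposited data. Of 38 tested with GZMB, 4 were higher, where 20.4% of all genes were, and 11 lower, where 11.5% were (median log2 -0.12, against 0.20 over all genes). Of 38 with CCR7, 10 were higher, against 8.01%, and 4 lower, against 14% (0.14 against -0.15). The lower ones with GZMB included receptors of related ligands. ACVR2A, an activin type II receptor, was at 0.652 against 3.54 CPM (-2.44, -3.81 to -1.31), ACVR1B, an activin type I receptor, at 0.466 against 2.23 CPM (-2.26, -3.96 to -0.91), and BMPR1B, a BMP receptor, at 1.03 against 5.08 CPM (-2.31, -3.36 to -1.40). All 3 were higher with CCR7, at 1.66, 2.02 and 1.32. TGFBR3 lay the other way in both, at 2.12 and -1.88. BMPR2 (-0.73) and ZFYVE9 (-1.01), which encodes a scaffold that brings SMADs to the receptor, were also lower with GZMB and higher with CCR7 (0.60 and 1.12).

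Among genes that the pathway is known to induce, 3 feedback genes were lower with GZMB and SMAD7, also induced, lay the other way (0.52, 0.22 to 0.82, under 1.5-fold). SKIL, a relative of SKI, was at 7.36 against 18.4 CPM by GZMB (-1.33, -1.70 to -0.97), PMEPA1 at 0.746 against 3.43 CPM (-2.20, -3.48 to -1.13), and LDLRAD4, which like PMEPA1 limits the access of SMADs to the receptor, at 3.08 against 10.3 CPM (-1.74, -2.32 to -1.20). With CCR7 they were higher, by 0.76, 1.11 and 1.36. In the list of 13 genes induced through SMADs, which shares SKIL, PMEPA1, LDLRAD4 and TGIF1 with the pathway list, 2 of 10 tested were higher with GZMB, against 20.4% of all genes, and 4 lower, against 11.5%. With CCR7 5 of 10 were higher, against 8.01%, and 1 lower, against 14%. ITGAE, ID1, ID3 and TGIF1 were within 1.5-fold with GZMB, and ID3, a repressor of bHLH factors, was higher with CCR7 (0.72). The higher ones with GZMB were BHLHE40, a transcriptional repressor (254 against 79.7 CPM, 1.67, 1.58 to 1.77), and KLF10 (19.3 against 11.1 CPM, 0.80, 0.51 to 1.09). JUNB, an AP-1 factor, was lower (363 against 697 CPM, -0.94, -0.995 to -0.89). These genes answer to many signals besides TGF-β. FKBP1A, whose product binds the resting type I receptor, was higher with GZMB (213 against 115 CPM, 0.89, 0.80 to 0.98), as was ITGAV (7.55 against 2.91 CPM, 1.37, 0.85 to 1.91), the αv integrin subunit that takes part in releasing latent TGF-β. PPM1A (0.59) and TRIM33 (0.63) were higher, though under 1.5-fold relative to the median of all genes, and WWP1 (-0.73) and TAB2 (-0.90) lower. With CCR7 the type I receptor gene ACVR1 was higher (0.83, 0.10 to 1.55), and ACVR1C (-0.77, on 16 UMIs) and THBS1 (-1.08, on 8 UMIs) were lower, with intervals that included 0.

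**Figure D5:**
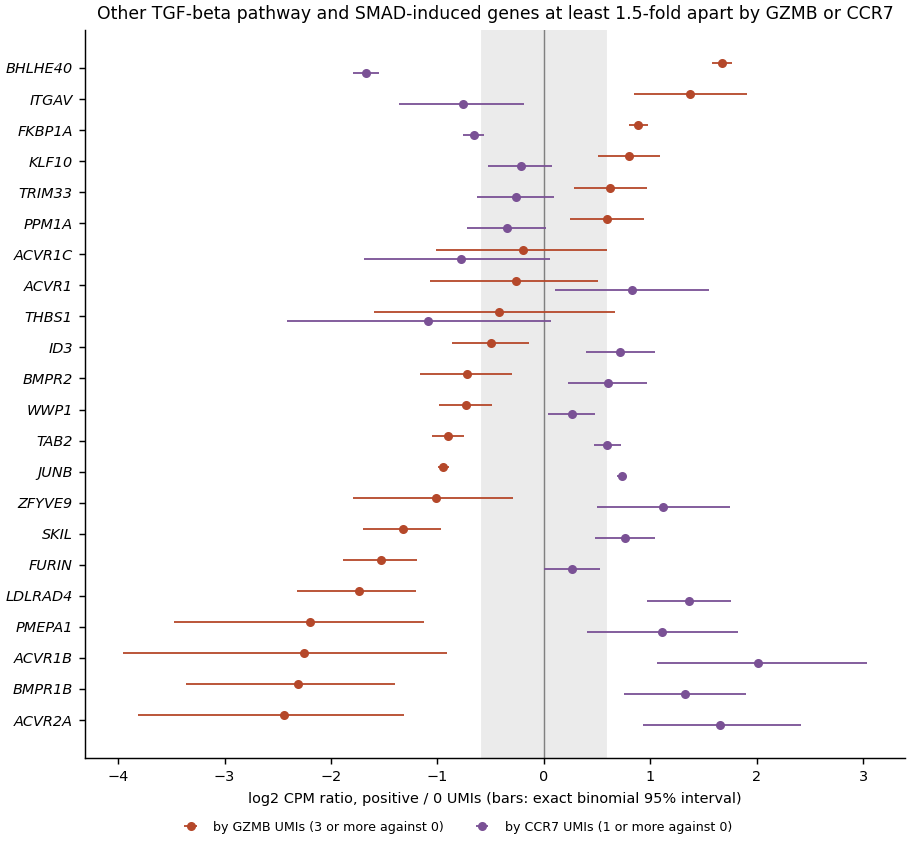
Log2 CPM ratio (horizontal axis) by GZMB and by CCR7 of the 22 genes of the pathway and induced lists that were at least 1.5-fold apart by either, with exact binomial 95% intervals. BHLHE40 and ITGAV were higher with GZMB, at 1.67 and 1.37, while SKIL, PMEPA1, LDLRAD4, ACVR1B, BMPR1B and ACVR2A were lower with GZMB and higher with CCR7.

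With the homing receptors the clearest pathway gene was FURIN, the protease that cuts the TGF-β precursor. It was at 49.5 CPM in CCR6+ cells against 13.02 (1.93, 1.64 to 2.20), at 41.4 CPM in CCR9+ cells against 14.5 (1.52, 1.20 to 1.82), and at 7.92 CPM in GZMB+ cells against 22.9 (-1.53, -1.89 to -1.19). LTBP4, which stores latent TGF-β in the matrix, was higher with CCR6 (0.68) and CCR9 (0.59). Of 30 pathway genes tested with CCR6, 4 were higher, against 4.82% of all genes, and none lower, against 6.33%. Of 29 with CCR9, 7 were higher, against 4.16%, SMAD4 (1.09) and SMAD5 (0.67) among them, and 1 lower, against 10.3%. With FOXP3 3 of 15 were lower, against 15.2%, SKIL (-2.53, 2 UMIs), LTBP4 (-0.91) and TAB1 (-0.66), and none higher, against 4.52%. With GNLY 4 of 36 were higher, against 7.49%, and 7 lower, against 6.87%. The higher ones included the ubiquitin ligases NEDD4L (1.33, 0.85 to 1.80) and SMURF1 (0.70) and the BMP receptor gene BMPR1A (0.88), and the lower ones LTBP3 (-0.62), which encodes a latent TGF-β binding protein. With CX3CR1 4 of 35 were higher, against 13.6%, and 9 lower, against 8.73%. With EOMES 1 of 25 was higher, against 3.98%, and 4 lower, against 5.11%, among them LTBP3 (-0.96, on 9 UMIs) and NRROS (-0.70), whose product anchors latent TGF-β.

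For the induced list, the counts with the other genes were 2 higher and 2 lower of 10 with GNLY, 1 and 5 of 10 with CX3CR1, none and 1 of 9 with EOMES, 1 and none of 9 with CCR6, 1 and 2 of 9 with CCR9, and none and 3 of 6 with FOXP3. Over all genes the higher and lower shares were 7.49% and 6.87% with GNLY, 13.6% and 8.73% with CX3CR1, 3.98% and 5.11% with EOMES, 4.82% and 6.33% with CCR6, 4.16% and 10.3% with CCR9, and 4.52% and 15.2% with FOXP3. ID3 was lower with CX3CR1 (-1.03) and ID1 lower with CCR9 (-1.27, on 9 UMIs). BHLHE40 was lower with CCR9 (-1.08), FOXP3 (-2.75) and CCR7 (-1.67). ITGAE, which encodes the αE integrin and is known to be induced by TGF-β in T cells, had 1323 UMIs and stayed within 1.5-fold with each of the 8 genes it could be tested with. The activating cell-surface genes LRRC32 (6 UMIs) and ITGB8 (1 UMI) were barely detected, and ENG, SMAD6, ITGB6 and ACVRL1 had 0 UMIs, with an interval of 0 to 0.122 CPM.

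The genes most like each member were taken from 4689 genes with at least 20 CPM, by Pearson's r of log2(CPM + 10) over the 9 groups. For TGFBR3 they were EML4 (0.99), IQSEC1 (0.98) and SYNE1 (0.98). EML4 ran from 344 CPM in CX3CR1+ cytotoxic cells to 100.4 CPM in CCR9+ cells. For TGFB1 they were ORAI1 (0.99), CAPN2 (0.98) and MYD88 (0.97), for TGFBR2 ND2, TRADD and NOC2L (0.99 each), and for SMAD3 NDUFS3, ABHD17B and KLF3 (0.96 each). For SMAD7 they were ELF1 (0.95), UBXN4 (0.95) and DDX47 (0.93), for TGFBR1 RNF146 (0.95), UBE2Q1 (0.90) and MACROD1 (0.88), and for SKI ZNF506 (0.96), SCAF11 (0.95) and CD69 (0.95). The 9 groups come from 1 library, and the smallest, FOXP3+, weighs as much as the others. The named genes were picked as the 3 highest of 4689 over only 9 groups. SKI had 0 UMIs in FOXP3+, 2 in EOMES+, 2 in CCR6+, 3 in CCR9+ and 3 in EOMES+ cytotoxic cells. Its profile, and so the genes most like it, cannot be told apart from counting error. Other members also had levels on few UMIs. In FOXP3+ cells TGFBR2 had 1, TGFBR3 and SMAD7 2 each, and TGFBR1 and SMAD3 3 each. In EOMES+ cells TGFBR1 had 2 and SMAD3 5, and in CCR9+ cells TGFBR3 had 4 and SMAD7 6. How far these counts set the genes most like each member was not tested.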

How the data were processed

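DP T cells from the blood of 1 rhesus monkey were measured in 2 libraries, RNA and antibody tags. Per the labels, Cell Ranger 3.1.0, STAR 2.5.1b, Seurat 3.1.3 and the Mmul_10 genome were used. Which annotation release they counted on was not stated in these sources. The authors deposited UMI counts for each gene, tag and barcode, whole numbers that were not normalized. As in the study's methods, a kept barcode had 200 to 4000 genes and no more than 20% of its UMIs from mitochondrial genes. Features without a symbol that lie between the named mitochondrial genes in the gene list were counted as mitochondrial, a choice made with the number of cells it leaves known. GNLY has no symbol in the deposited gene list and was matched by its identifier ENSMMUG00000063583 through a table of gene names, which gave 720 genes a symbol.

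A T cell needed 1 CD3E UMI. UMIs were summed over cells and divided by the cells' total (CPM), with exact Poisson intervals, and ratios and shares had exact binomial (Clopper-Pearson) intervals at 95%. Genes with an expected count of at least 10 UMIs in the smaller group were tested for a 1.5-fold difference, and the rule gene itself was left out. Intervals cover counting error in 1 library. The ratios and their intervals were tried on simulated counts with known fold changes. Those counts were drawn for sums over cells, so the grouping of cells, the cutoffs and the lists were not tested by them. Scrublet marked 0 of the 7601 kept cells as doublets and thus did not work, so none was removed, and 1 alternative left out the 5% of cells with the highest scores. The members, the 8 genes and the lists were chosen with earlier results of these data known. All members, the list genes past 1.5-fold with at least 1 of the 8 genes and the 3 genes most like each member are named, and ITGAE, SMAD6, ENG, ITGB6, ITGB8, ACVRL1 and LRRC32 were named after their values were seen. TGIF2, HBA2 and LILRA4 were not matched in the gene list. Positions and upstream bases are from RefSeq's annotation release 103 of Mmul_10, matched by symbol. Python 3.11.15, scanpy 1.11.5, pandas 2.3.3, scipy 1.17.1, numpy 2.4.6 and matplotlib 3.10.9 were used.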

Additional observations from a re-analysis of the deposited data

How the results depend on the processing

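There was 1 animal, so no replicate could be left out. No paired analysis was possible because the labels give no replicates. The 9 planned ways of processing and 4 chosen after seeing the data were tried for the ratios. Of the 19 ratios past 1.5-fold, all 19 kept their sign in each, and 8 stayed past it in each. Of the 104 counts of members past 1.5-fold, 89 were within 1.5 times the count as reported. The count for EOMES went from 2 to 1 when 2 EOMES UMIs were asked for, without a cell filter, with the mean over cells, with thinning to 2000 UMIs, with 1 class of marker against cells with none, and relative to the median of all genes. In the setting with 1 class of marker, EOMES gave its highest ratios for TGFBR3 (1.44) and SMAD7 (1.53). SMAD7 left that count since its UMIs, 9 in the EOMES+ cells, were too few to be tested. With 1 class of marker against cells with none, the count for CX3CR1 went from 1 to 3, for CCR9 from 2 to 4 and for FOXP3 from 4 to 2 of the 2 members then tested. With CX3CR1 TGFBR3 (1.76), TGFBR1 (0.66) and SMAD3 (0.61) were higher. With CCR9 TGFBR3 (-4.07) and SMAD3 (-0.89, -1.88 to -0.04) were lower. SMAD7 (-0.92, -2.41 to 0.27, 6 UMIs) was lower and TGFBR1 (0.67, -0.20 to 1.45, 17 UMIs) higher, with intervals that included 0. The share over all genes in this comparison is not given here, so these counts have no background beside them. With UMIs per cell without scaling, the count went from 3 to 1 for GZMB, from 2 to 1 for CCR6 and CCR7 and from 4 to 2 for FOXP3. Relative to the median of all genes it went from 3 to 1 for GZMB and from 2 to 1 for CCR7. The count for GNLY also fell, by less, since TGFBR2 (0.61, beside a median of 0.09 over all genes) came under 1.5-fold. Why the counts changed without scaling was not tested. Leaving out the highest Scrublet scores, the CD3E+ cells with B gene UMIs or those with platelet marker UMIs moved no count by over 1.5 times. Of the 54 ratios tested, 10 changed sign without scaling, all under 1.5-fold. They were TGFBR2, SMAD3, SMAD7 and SKI with CCR6 (to 0.32, 0.42, 0.47 and 0.42), TGFB1, TGFBR2, SMAD3 and SKI with CCR9 (to 0.31, 0.36, 0.07 and 0.20) and TGFBR1 and SMAD3 with CCR7 (to 0.07 and 0.19). Depth limits SKI, SMAD7 and every member in the 36 cells with FOXP3 alone.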
